A study of Oncorhynchus kisutch with 221 samples.

Results

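White muscle was compared between coho salmon (Oncorhynchus kisutch) caught in fall and in summer of 2009 in the area labelled WCVI, the west coast of Vancouver Island. All fish of 2009 with that area label and the season label Ocean_Fall or Ocean_Summer were taken, and they numbered 10 fall and 8 summer fish, 18 of the 221 fish in the series. Each fish had its own 2-colour microarray, on which its amplified muscle RNA carried Alexa 555 and a pool of muscle RNA carried Alexa 647. A value is read as the log2 ratio of the fish to that pool, so 0 is the level of the pool and a difference of 1 is a doubling. Neither the log base nor the direction of the ratio is stated, and both are taken as likely. The comparison group for place was the 58 fall and 49 summer fish of 2009 from the Strait of Georgia, the sheltered sea on the other side of the island, in its south_SoG and NM_SoG parts. Of these 107 fish, 55 were labelled wild, against 9 of 10 fall and 7 of 8 summer WCVI fish. Their region labels included ECVI, Fraser and S_Main, and both sexes were present. The areas therefore differed in origin and region as well as in place.

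The fall fish were 9 wild fish and 1 hatchery fish, 6 female and 4 male. Their region label was ECVI, Puget_Sound, Columbia, North or Oregon, with 2 fish each. The summer fish were 7 wild fish and 1 hatchery fish with sex labelled U, and 6 carried the region label Columbia, 1 Oregon and 1 North. Of the fall fish, 8 were caught at latitude 49.08 and longitude -126.033, 1 (fish 10) at 49.835 and -127.286 and 1 (fish 1) at 48.338 and -123.769. By these coordinates fall fish 1 was caught south of the island, well to the east of the others, and its WCVI label may not fit the outer coast. Of the summer fish, 4 were caught at 49.107 and -126.374, 3 at 48.675 and -125.602 and 1 at 49.836 and -127.469. The labels give no age, and the fish were wild-caught without an experimental treatment. The fall arrays lay on 6 slides and the summer arrays on 5 others, so season, region mix and slide cannot be fully told apart in these fish. Fish are numbered by replicate within a season.

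White muscle is the fast-contracting tissue that makes up most of a salmon's trunk. It powers bursts of swimming, stores protein that can be drawn on when food is short, and takes most of the mass a growing fish gains. It grows by adding fibres and by enlarging those already present. Coho feed and grow through their first summer and fall at sea before they mature and return to rivers. In a bulk muscle sample, a change in the mix of cells and a change in transcript per cell cannot be told apart. No table used here pairs the array's probes with genes, so transcripts are given by probe identifier, with no gene name or function, and the tissue label could not be set against muscle marker genes.

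The fall fish were much larger. Their fork length, the distance from snout to the fork of the tail, ranged between 24.6 and 35.2 cm with a median of 30.2 cm, and that of the summer fish between 14.2 and 21.1 cm with a median of 17.05 cm. The shortest fall fish was longer than the longest summer fish. Mean length was 30.11 ± 2.864 cm in fall (SD, n = 10) and 16.82 ± 2.341 cm in summer (SD, n = 8), a difference of 13.28 cm (exact permutation test, two-sided, p = 2.29e-05, 0.000114 after Benjamini-Hochberg adjustment over the 5 measures tested). Mean mass was 369.8 g in fall and 54.75 g in summer, with ranges of 167 to 570 g (n = 10) and 32 to 104 g (n = 8; exact permutation p = 4.57e-05, adjusted 0.000114), again without overlap. The fall fish also had the higher mean condition factor, a measure of mass against length. As the lengths of the seasons did not overlap, fish of like length could not be compared. Condition factor, 100 times mass in grams over the cube of length in cm, averaged 1.314 ± 0.1059 in fall and 1.09 ± 0.06557 in summer (SD, n = 10 and 8, exact permutation p = 0.000343, adjusted 0.000571). The ranges of condition overlapped, at 1.122 to 1.437 in fall against 0.9877 to 1.19 in summer.

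The length step was larger off WCVI than in the Strait. The Strait fish averaged 24.52 ± 2.365 cm in fall (SD, n = 58) and 18.1 ± 2.215 cm in summer (SD, n = 49), a step of 6.418 cm. The WCVI step exceeded it by 6.867 cm (permutation test with 100000 resamples, two-sided, area labels shuffled within season, p = 1e-05, the smallest these resamples can give). WCVI fish were on average the longer ones in fall and the shorter ones in summer. Different fish were caught in each season, so the step compares catches and follows no single fish.

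**Figure D1:**
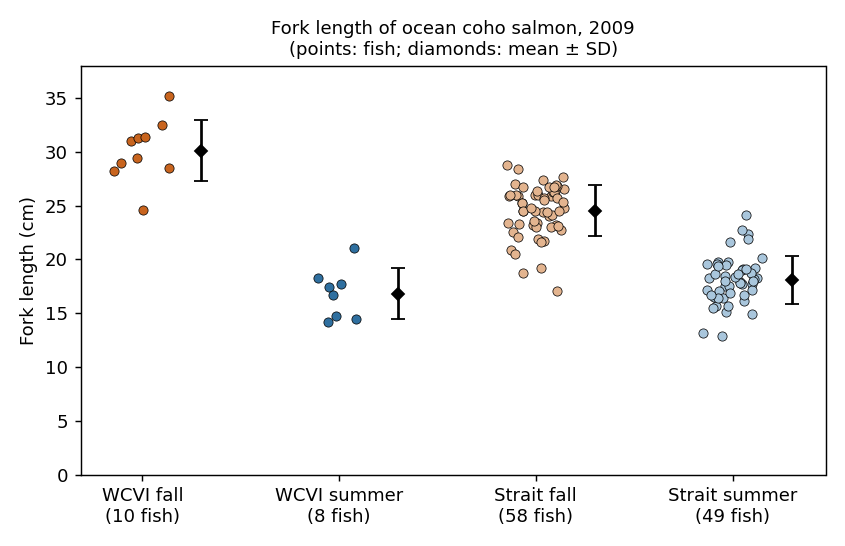
Fork length in cm of each 2009 fish in 4 groups, with the mean and SD as a diamond and bar. WCVI fall fish lay between 24.6 and 35.2 cm and WCVI summer fish between 14.2 and 21.1 cm, and the fall minus summer step was 13.28 cm off WCVI and 6.418 cm in the Strait.

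The transcript profiles of the seasons were largely separate but not cleanly so. The first principal component of the 18 fish over the 14416 tested probes measured in every fish carried 19.5% of the variance and the second 14.6%. Scores on the first component ranged between -2.86 and 43.95 in fall and between -58.33 and -0.45 in summer. The lowest fall score, of fish 8, fell inside the summer range, below summer fish 2 and 3, and the other 9 fall fish lay above every summer fish. Season accounted for 15.2% of the sum of squares over these probes, so most of the variation was between fish of one season.

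The fall fish resembled each other more than the summer fish did. Over those probes the correlation between 2 arrays had a median of 0.475 among the 45 fall pairs (range 0.155 to 0.664) and of 0.312 among the 28 summer pairs (range -0.0403 to 0.652). Between a fall and a summer fish the median was 0.226 over 80 pairs. The median SD of a probe was 0.345 in fall and 0.402 in summer, and 63.7% of the probes had the larger SD in summer. Pairs share fish and all arrays share the pool, so these values are descriptions.

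The first component ran with body size in both seasons without passing a test. Within fall, Pearson's r with fork length was 0.645 (permutation p = 0.0418, adjusted 0.0836 over the 2 seasons) and Spearman's rho was 0.527 (permutation p = 0.12, adjusted 0.132; n = 10). Within summer, r was 0.535 (exact permutation p = 0.164) and rho 0.595 (exact permutation p = 0.132, adjusted 0.132; n = 8). Without the 2 fish farthest from the median length, r was 0.591 in 8 fall fish and 0.623 in 6 summer fish. The longest fall fish, fish 4 at 35.2 cm, had the highest score, and summer fish 6, at 14.7 cm among the 3 shortest, had the lowest.

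**Figure D2:**
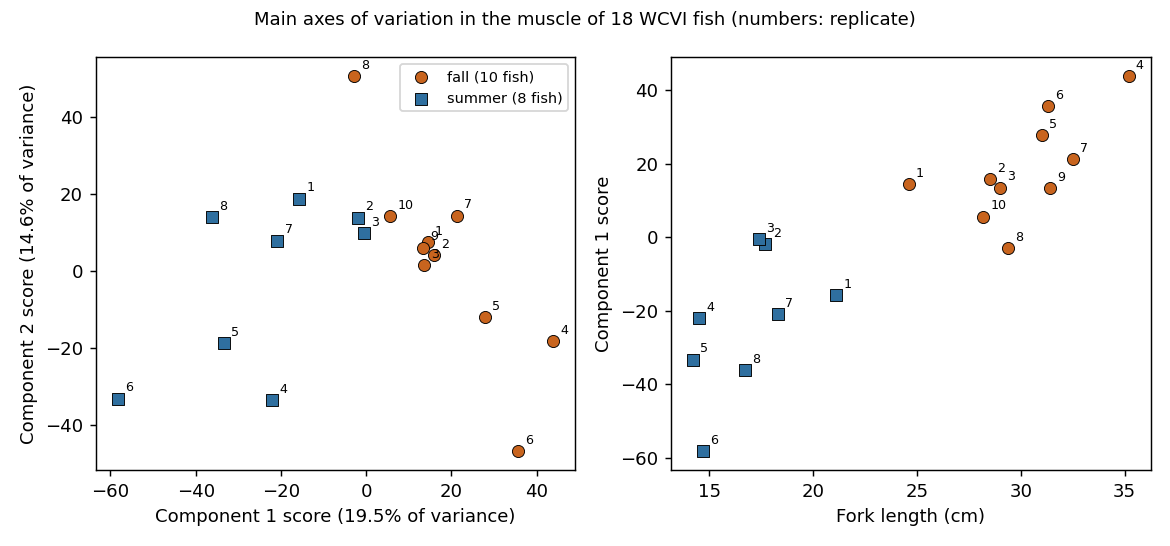
Left, scores of the 18 WCVI fish on the first and second principal components; right, the first score against fork length in cm. Circles are fall fish and squares summer fish, numbered by replicate; 9 of 10 fall fish score above every summer fish on component 1, and fall fish 8 (-2.86) does not.

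Many probes differed between the seasons off WCVI. In limma's moderated test over 20787 probes, 892 passed an adjusted p of 0.05, which is 4.29% of the probes tested. Of these, 402 were higher in fall (1.93% of probes tested) and 490 were lower (2.36%). The higher ones had a median difference of 0.83 on the log2 scale (quartiles 0.67 and 1.21) and the lower ones of -0.76 (quartiles of the size, 0.63 and 0.96). A difference of at least 1 was seen in 139 of the higher and 107 of the lower probes, and one of at least 2 in 27 and 10. Over all probes tested the median size of the difference was 0.20, with a median standard error of 0.20.

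The count leaned on single fish. Without summer fish 6 it was 263, of which 126 were higher and 137 lower in fall, and without fall fish 4 it was 558. All of the 882 called probes that could still be tested without summer fish 6 kept their direction, and the median size of their difference was 0.73 without that fish and 0.79 with it. Leaving out any other fish gave between 612 and 967, and 855 without fall fish 1. With slide as a random block 541 probes were called, and with slide as a fixed block, where 14545 probes could be tested, 9. As no slide held WCVI fish of both seasons, the fixed block estimated the WCVI step only through Strait fish on shared slides. The part of slide in these counts was not tested.

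**Figure D3:**
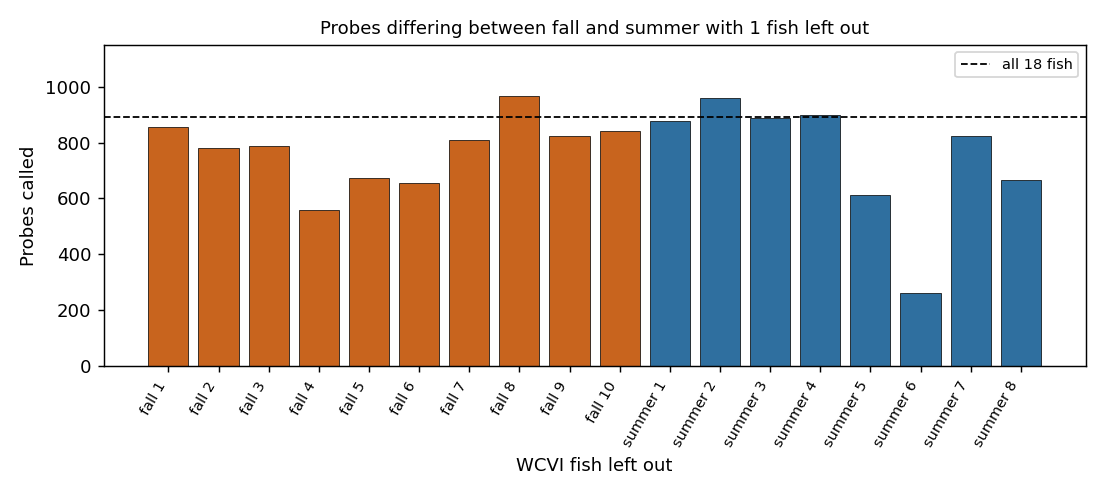
Number of probes called between fall and summer off WCVI (adjusted p under 0.05) when the fish named on the horizontal axis is left out; the dashed line marks 892 with all 18 fish. The count lies at 263 without summer fish 6 and at 558 without fall fish 4.

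Few probes separated every fall fish from every summer fish. Among the 14416 probes measured in all 18 fish, the fall and summer values of 50 did not overlap (0.347%). In 24 of them (0.166%) all fall fish lay above all summer fish, and in 26 (0.18%) below. Of the 712 called probes measured in all 18 fish, 43 were without overlap, so in most called probes at least 1 fish lay inside the range of the other season.

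The largest increase was at probe C092R164. The fall fish lay between 0.44 (fish 1) and 3.36 (fish 8), with a median of 1.34, and the summer fish between -3.16 (fish 8) and 0.82 (fish 2), with a median of -0.91. The summer fish fell into a high and a low set, with fish 1, 2, 3 and 7 between 0.00 (fish 1) and 0.82 and fish 4, 5, 6 and 8 between -3.16 and -1.82. Only fall fish 1, the one caught south of the island, lay inside the summer range. The means were 1.77 ± 0.95 in fall (SD, n = 10) and -1.07 ± 1.80 in summer (SD, n = 8), 2.84 apart (SE 0.68; adjusted p = 0.00711 in limma).

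Probe C196R045 had almost the same pattern. Fall fish lay between 0.63 and 3.16 and summer fish between -3.30 and 1.24, and the same 4 summer fish were low. The means were 1.71 ± 0.82 in fall (SD, n = 10) and -0.98 ± 1.93 in summer (SD, n = 8), 2.70 apart (SE 0.70; adjusted p = 0.0139 in limma, 0.0602 without summer fish 6). After removal of the season means, the 2 probes had a correlation of 0.979 over the 18 fish, and the files do not say whether they target 1 transcript.

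The low summer fish at these probes were the 4 shortest. Summer fish 4, 5, 6 and 8 measured 14.5, 14.2, 14.7 and 16.7 cm, and summer fish 1, 2, 3 and 7 measured 21.1, 17.7, 17.4 and 18.3 cm. Place and slide moved with the split too. High fish 1, 2 and 3 were the 3 fish caught at 48.675 and -125.602, and they shared a slide. Of the 4 fish caught at 49.107 and -126.374, fish 4, 5 and 6 were low and fish 7 high, and fish 6 and 7 shared a slide. Low fish 8 was the fish caught at 49.836 and -127.469. Of the 6 Columbia fish 2 were low and 4 high. The parts of length, place and slide in the split were not tested. Within seasons, the slope with length was 0.26 per cm at C092R164 (SE 0.10) and 0.25 per cm at C196R045 (SE 0.11), with an adjusted p of 0.792 at each in limma over all probes, so neither slope passed. With length as a covariate over the WCVI and Strait fish, the difference between seasons was -0.24 at C092R164 and -0.11 at C196R045, with limma adjusted p of 0.95 and 0.98.

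The largest decrease among probes measured in all 18 fish was at C044R036. All fall fish lay between -2.64 and -0.76, with a median of -2.09. Of the summer fish, 7 lay between 0.45 and 2.43, above every fall fish, and fish 8 stood apart at -2.74, below every fall fish. The means were -1.87 ± 0.60 in fall (SD, n = 10) and 0.71 ± 1.57 in summer (SD, n = 8), with fall minus summer at -2.58 (SE 0.59; adjusted p = 0.00529 in limma). Without summer fish 8 the difference was -3.07 (limma adjusted p = 0.00123).

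C054R063 had a difference of the same size and more scatter. Fall fish 9 was high at 0.03 and the other fall fish lay between -4.07 and -1.30. Summer fish 5 and 6 were high at 2.06 and 3.25, fish 8 was low at -2.77, and the other 5 lay between -1.59 and -0.57. The means were -2.88 ± 1.28 in fall (SD, n = 10) and -0.31 ± 1.99 in summer (SD, n = 8), with fall minus summer at -2.58 (SE 0.75; adjusted p = 0.0284 in limma, 0.142 without summer fish 6 and 0.0871 without summer fish 5).

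**Figure D4:**
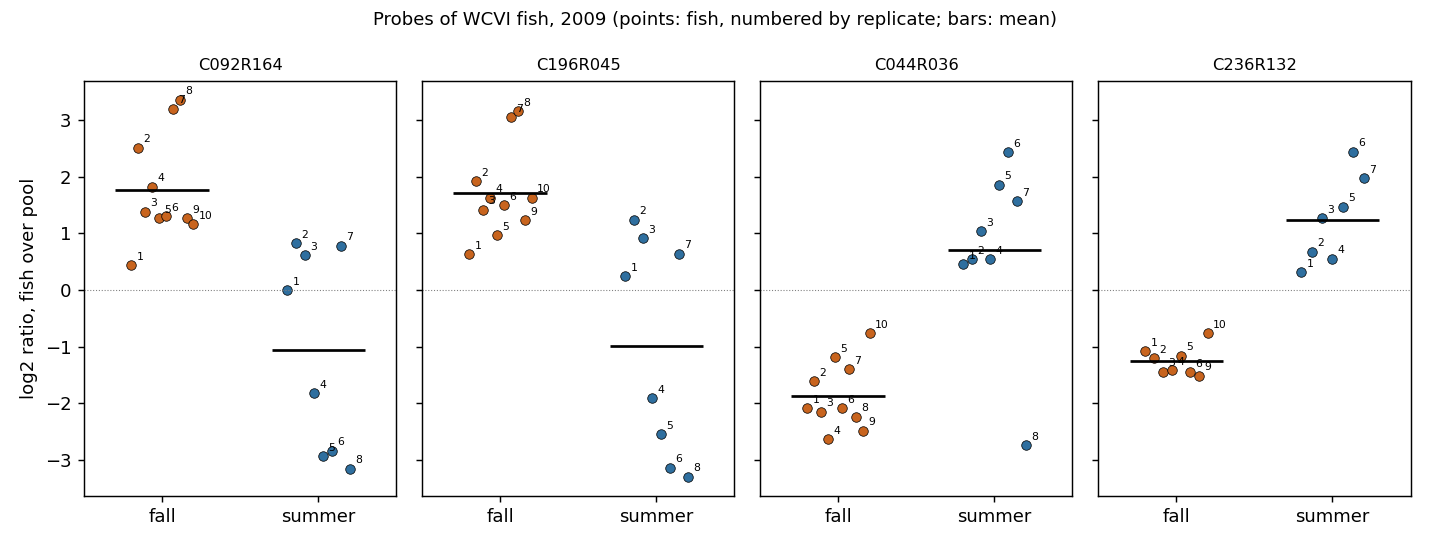
Log2 ratio of fish over pool at 4 probes in the WCVI fish, fall left of summer, numbered by replicate, with the group mean as a bar. At C092R164 and C196R045 summer fish 4, 5, 6 and 8 lie below the other summer fish, and at C044R036 summer fish 8 lies at -2.74. At C236R132, measured in 8 fall and 7 summer fish, the seasons do not overlap, but summer fish 8 has no value there.

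The 6 winter fish of WCVI gave a further view of these probes, as levels only. At C044R036 they lay between -2.66 and -1.14, with a median of -1.86, close to the range of the fall fish. At C092R164 they spread between -3.69 and 1.81 with a median of 1.31. That range took in all summer values and the lower fall values, but fall fish reached 3.36. At C054R063 they lay between -4.09 and -0.43, with a median of -2.40.

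No probe passed a test for body length within seasons. With season in the model, 0 of the 20787 probes passed in limma over the 18 fish, while 1288 had an unadjusted p under 0.05. The probes of smallest p in each direction were C067R053 and C265R052, with slopes of 0.31 per cm each (SE 0.06 each), and C228R009 and C005R071, with slopes of -0.37 (SE 0.07) and -0.15 per cm (SE 0.03); limma's adjusted p was 0.271 at all 4. C067R053 and C265R052 may not be separate results, since fall fish 4 was the highest and fall fish 2 the lowest fall fish at both. In the larger set of the 18 WCVI and 107 Strait fish, a common slope within group passed at 895 probes. With length as a covariate in that set, the season comparison off WCVI called 5 probes, 4 of them among the 892. Since the lengths of the WCVI seasons do not overlap, season and length cannot be told apart in these 18 fish.

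Most probes that changed in the Strait had the same direction off WCVI. In the Strait, 1715 probes (8.25%) passed the same test, 813 higher in fall (3.91%) and 902 lower (4.34%). These probes were called from other fish; WCVI fish entered only through the shared estimate of spread and the filter on empty cells. Of the 1715, 1409 or 82.2% had the same direction off WCVI, against 62.1% of all tested probes. Probes higher in fall in the Strait had a median difference of 0.27 off WCVI and 0.33 in the Strait, and 640 of 813 (78.7%) had the same direction. Probes lower in fall in the Strait had a median of -0.35 off WCVI and -0.33 in the Strait, and 769 of 902 (85.3%) had the same direction. Both areas were measured against the same pool, and probes are not independent, so no test was made of these shares. Summer fish of both areas also lay on a shared slide, and the correlation within slides was 0.18 over the WCVI and Strait fish. The part of shared slides in these shares was not tested. The Strait calls numbered 790 with slide as a random block, of which 88.9% had the same direction off WCVI, and 32 with slide as a fixed block, of which 87.5% did. In fish labelled wild, with 55 Strait fish, no Strait probe passed, so no share could be given for fish of like origin.

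The reverse view gave a similar share and a smaller size. Of the 892 WCVI calls, 742 (83.2%) had the same direction in the Strait. The 402 higher ones had a median of 0.83 off WCVI and 0.15 in the Strait, and the 490 lower ones of -0.76 and -0.16. The WCVI values of these probes are those they were chosen by, with a median standard error of 0.20 off WCVI against 0.09 in the Strait, so the larger WCVI size is in part set by the choice. In 186 probes both areas passed with the same direction, which is 20.9% of the WCVI calls and 10.8% of the Strait calls, and 1 probe passed in opposite directions. Over all tested probes the steps of the areas had a correlation of 0.414, given as a description.

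The parts of the Strait differed as a match. The season step of NM_SoG passed at 2221 probes, and that of south_SoG at 0 by limma, with 1419 at an unadjusted p under 0.05. The parts were unlike in size, with 32 fall and 32 summer fish in NM_SoG and 26 and 17 in south_SoG. The south_SoG step was therefore the less precise, with a standard error of 0.39 against 0.31 at C044R036, for example. Of the 892 WCVI calls, 757 (84.9%) had the same direction in NM_SoG and 595 (66.7%) in south_SoG, where all tested probes gave 62.1% and 58.2%. Among the 246 WCVI calls of at least 1, the shares were 91.9% and 60.2%. Signed in the direction of the WCVI change, their median step was 0.50 in NM_SoG and 0.07 in south_SoG. The difference between the NM_SoG and south_SoG shares was not tested.

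A smaller set of probes had a season step off WCVI that differed from the Strait step. The interaction passed at 106 probes (0.51%), with the WCVI step the higher at 56 (0.269%) and the lower at 50 (0.241%), and 2553 probes had an unadjusted p under 0.05. Of the 56, 54 were called off WCVI and 4 in the Strait, with median steps of 0.83 off WCVI and -0.03 in the Strait. Of the 50, 44 were called off WCVI and 7 in the Strait, with medians of -0.81 and 0.02. The signs of the WCVI and Strait steps were opposite in 34 of the 56 and 26 of the 50. These probes were chosen because their steps differ, so the WCVI calls, the opposite signs and the larger WCVI steps are in part set by the choice. Of all tested probes, 4.29% were called off WCVI and 8.25% in the Strait, and 62.1% had the same direction in both areas. The count was 7 without summer fish 6, 27 without summer fish 7, 48 without summer fish 5 and between 52 and 69 without fall fish 2, 3, 4, 6, 9 or 10. It was 166 without summer fish 4 and 10 with slide as a random block. The 4 probes named for the season step were not among the 106. Their Strait steps were 0.54 at C092R164, 0.51 at C196R045, -0.28 at C044R036 and 0.03 at C054R063. The limma adjusted p of the area difference was 0.123, 0.165, 0.0707 and 0.109 in that order.

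**Figure D5:**
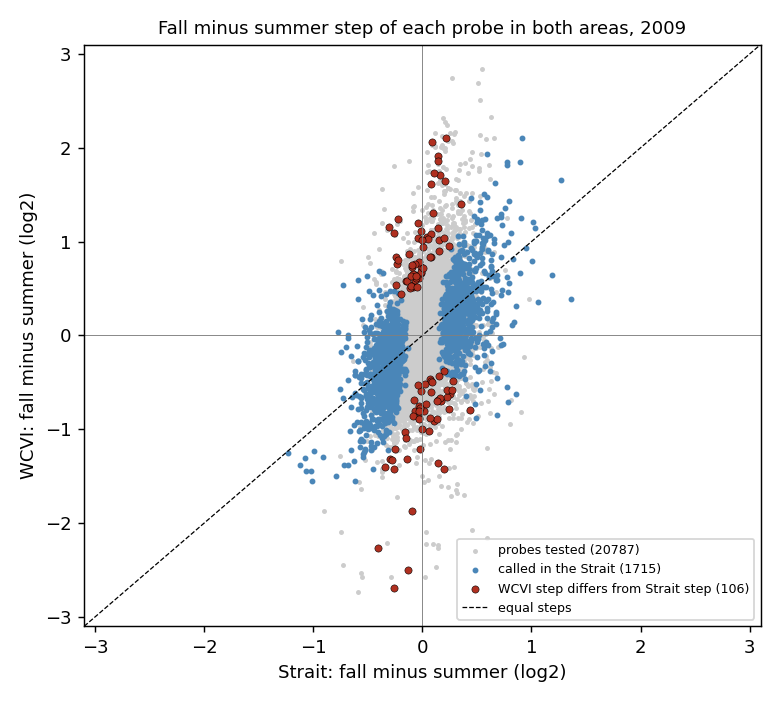
Fall minus summer difference on the log2 scale for each of 20787 probes, WCVI on the vertical axis and the Strait on the horizontal axis. Blue points are the 1715 probes called in the Strait, red points the 106 whose steps differ, which lie far from the dashed line of equal steps, with median WCVI steps of 0.83 and -0.81.

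At C236R132, one of the most negative differences, the WCVI means lay outside the Strait means of 2009 in both seasons. There the 8 measured fall fish lay between -1.51 and -0.77 and the 7 measured summer fish between 0.32 and 2.44. Summer fish 8, which lay below every fall fish at C044R036, had no value here, and neither did fall fish 7 and 8. The measured summer fish had like values at the 2 probes, such as 2.44 and 2.43 in fish 6. The lack of overlap may thus rest on the empty cell of summer fish 8. Strait fish averaged 0.16 (NM_SoG) and -0.02 (south_SoG) in fall, and 0.41 and -0.02 in summer, so the WCVI fall mean of -1.26 ± 0.25 (SD, n = 8) lay below those Strait means of 2009 and the WCVI summer mean of 1.24 ± 0.78 (SD, n = 7) above them. The low fall level was not confined to WCVI: the 7 fall fish of NM_SoG from 2008 averaged -1.13, between -1.64 and -0.73. The high summer level was not confined to WCVI either. The NM_SoG summer fish of 2009 had a median of 0.93, between -2.512 and 2.335 (n = 31), against a WCVI summer median of 1.27. The south_SoG summer fish had a median of -0.19, between -1.245 and 1.818 (n = 17). The WCVI step was -2.50 and the Strait step -0.13, a difference of -2.37 (SE 0.54, limma adjusted p = 0.0244). The call was lost without summer fish 6 or 7 (limma adjusted p = 0.0915 and 0.0554), with fork length as a covariate (0.072) and against NM_SoG alone (0.0556). The 3 winter fish of WCVI with a value lay between -1.06 and -0.30.

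At C155R084 the WCVI fish lay apart from the Strait means in summer and near them in fall. The 9 measured fall fish averaged -2.35 ± 0.65 (SD, n = 9), near the Strait fall means of -2.27 in NM_SoG and -2.31 in south_SoG. The 5 measured summer fish averaged 0.34 ± 1.87 (SD, n = 5), against Strait summer means of -1.80 and -2.25. Single NM_SoG summer fish ranged from -3.18 to 2.83, which spans all but the highest WCVI summer value. Summer fish 1, 2 and 3 of WCVI, which were caught at 48.675 and -125.602 and shared a slide, had no value. The summer values were uneven, at 3.29 in fish 8, 1.01 in fish 6, -0.55 in fish 4, -0.63 in fish 7 and -1.40 in fish 5. The steps were -2.70 off WCVI and -0.26 in the Strait, a difference of -2.43 (SE 0.55, limma adjusted p = 0.0244). The call was lost without summer fish 8 or 6 (limma adjusted p = 0.139 and 0.1) and with fork length as a covariate (0.133). It was also lost against NM_SoG alone (limma adjusted p = 0.0607) and with all 221 fish in the fit (0.116).

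The most positive differences were at C109R104 and C227R072. At both, fall fish 4 was the highest and fall fish 7 the lowest fall fish, and summer fish 3 was the highest summer fish. They may therefore not be separate results, and their correlation was not computed. At C109R104 fall fish ranged between -0.16 and 2.49 and the 6 measured summer fish between -2.51 and 0.08, so only fall fish 7 lay inside the summer range. The WCVI step was 2.06 and the Strait step 0.09, a difference of 1.97 (SE 0.50, limma adjusted p = 0.0385). The step had opposite signs in the parts of the Strait, at 0.68 in NM_SoG and -0.50 in south_SoG, neither of which passed. At C227R072 fall fish ranged between 0.37 and 3.18 and summer fish between -1.63 and 0.92, with fish 3 the highest. The steps were 2.11 off WCVI and 0.22 in the Strait, a difference of 1.89 (SE 0.50, limma adjusted p = 0.0492). There the NM_SoG step of 0.81 passed (limma adjusted p = 0.0202), and south_SoG gave -0.38 (limma adjusted p = 0.777). At both probes the difference to NM_SoG alone missed the threshold, at 1.38 and 1.29 (limma adjusted p = 0.26 and 0.302), and the difference to south_SoG alone passed, at 2.56 and 2.48 (limma adjusted p = 0.0157 and 0.0203). These calls were fragile: that at C109R104 was lost in 16 of 32 other settings and that at C227R072 in 19 of 33, with the sign kept in all of them. Without summer fish 6 their limma adjusted p was 0.142 and 0.137, without fall fish 4 0.0883 and 0.112, and with fork length as a covariate 0.229 and 0.158.

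Subsets narrowed by region label, place or origin gave the same directions at the probes named for the season step and the area difference. The season step was called at fewer probes in each. The area difference was called at 11 probes in the region subset, 46 in wild fish and 114 in the latitude subset, against 106 with all fish. Of the 114, 54 were among the 106. Among the 6 fall and 8 summer fish with the region labels Columbia, Oregon or North, 343 probes were called, and the difference was 3.09 at C092R164 and -2.43 at C044R036. The region mix stayed unlike, with 2 fall fish of each label against 6 Columbia, 1 Oregon and 1 North summer fish. Among the 8 fall and 4 summer fish caught between 49.0 and 49.2 degrees north, 656 were called, and C092R164 and C044R036 gave 3.72 and -3.58. The summer fish kept were fish 4, 5, 6 and 7. High fish 1, 2 and 3 at C092R164 and outlying fish 8 at C044R036 were thus left out. The length difference in this subset was 15.61 cm. The part of this choice of fish in the larger differences was not tested. Among the 9 fall and 7 summer fish labelled wild, 610 were called. Calls were lost in these subsets. In the region subset C054R063 (limma adjusted p = 0.0778) and all 4 probes named for the area difference (0.082 to 0.155) missed the threshold. In wild fish C054R063 (0.0698), C109R104 (0.0759) and C227R072 (0.135) did, and in the latitude subset C155R084 (0.115).

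The share of empty cells, the spread of the arrays and the control rows did not separate the seasons. Empty cells made up 48.4% ± 4.424 of a fall array (SD, n = 10) and 46.81% ± 7.988 of a summer array (SD, n = 8, exact permutation p = 0.596). The spread of values on an array, as its interquartile range, was 0.6062 ± 0.08817 in fall and 0.6299 ± 0.0825 in summer (SD, n = 10 and 8, exact permutation p = 0.581). Of the 60 control rows, 18 could be tested in these fish; limma called 0 and 1 had an unadjusted p under 0.05, with a largest difference of 0.33. Whether a probe had a value at all was tested at 21691 probes by Fisher's exact test: 0 passed after adjustment and 424 had an unadjusted p under 0.05, of which 130 were filled more often in fall and 294 in summer. With 10 and 8 fish, a single probe filled throughout 1 season and empty throughout the other could not have passed over 21691 probes. This test therefore could not decide whether presence differed.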

How the data were processed

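Single fish were the replicates, grouped by the season, year and area labels. The deposited values, 1 per probe and fish, are treated as log2 ratios of fish over pool, already normalized by the authors; no source used here gives the log base or the direction, and over 372 variable probes the median log2 of the mean linear ratio was -0.0337 in this reading and 1.64 in the other. The 60 control rows come from a second deposited table of the same values (unit unstated by the authors), of which 203 columns were not used; they were tested in the 18 fish alone and stayed out of the other tests, and 47.69% of the cells of the 18 fish were empty. No source used here describes the spot background correction or what left cells empty. The number of arrays limits the precision.

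Probes with a value in at least 50% of the fish of each of the 6 season and area groups of 2009 were tested in 1 fit over the WCVI and Strait fish (119 residual degrees of freedom), with lmFit and eBayes of limma 3.58.1 in R 4.3.3 and Benjamini-Hochberg adjustment. The Strait step is the mean of its south_SoG and NM_SoG steps. The fit was tested on simulated data. Named probes are the 2 highest and 2 lowest among those past the threshold for the WCVI step (with a value in all 18 fish) and for the difference between areas, and the 2 of smallest p in each direction for the length slope, where none passed. The probes, lists and tests were chosen with earlier results of these data known. Alternatives covered slides, scaling, filters, covariates, subsets of fish and leaving out each fish.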

Additional observations from a re-analysis of the deposited data

Results flagged for a closer look

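In 40 sets of values (the named probes and the size, array and component measures, by season), 3 held a fish far from the others by Dixon's criterion; chance alone gives about 1 in 20. At C044R036 summer fish 8 had -2.743, and the nearest summer fish 0.4502. The interquartile range of fall fish 8 was 0.8348, with the nearest fall fish at 0.6342. That of summer fish 4 was 0.4393, with the nearest summer fish at 0.6184.

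The season step differed between WCVI and the Strait in the interaction test by 1.97 at C109R104, 1.889 at C227R072, -2.433 at C155R084 and -2.372 at C236R132, with limma adjusted p between 0.0244 and 0.0492. The fork length step differed by 6.867 cm.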

How the results depend on the processing

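The count of 892 WCVI calls stayed within 1.5 times under scaling, filters, trend and robust eBayes, other sets of fish in the fit, origin as a covariate, wild fish only and fish of 1 latitude (610 to 1073), and was 813 in the 18 fish alone with slide as a random block, an alternative chosen after seeing the data. The probes called were not all the same. Of the 898 called with trend and robust eBayes, 883 were among the 892. Of the 998 called in the 18 fish alone, 652 were, as were 524 of 610 in wild fish and 444 of 656 in fish of 1 latitude. The count itself varied more under other settings. It was 541 with slide as a random block over both areas, 9 with slide fixed (14545 probes tested), 246 at a difference of at least 1, 5 with fork length as a covariate, 343 in fish labelled Columbia, Oregon or North, 500 without the slides with most arrays (fewer fish), and 263 to 967 with 1 fish left out. The count of area differences, 106 in the main fit, was 10 with slide as a random block, all among the 106. It was 2 with slide fixed, and 0 of these were among the 106. In wild fish it was 46, of which 35 were among the 106. It was 11 with WCVI fish labelled Columbia, Oregon or North, 33 without the slides with most arrays and 40 against NM_SoG alone. With 1 fish left out it was 7 to 166. Under the others run it was 88 to 138, but 78 with fork length as a covariate, of which 30 were among the 106. The cause was not tested. With slide fixed none of the 4 probes named for the WCVI step passed (limma adjusted p 0.114 to 0.787). Their differences were then 4.609 at C092R164, 4.386 at C196R045, -1.183 at C044R036 and -1.664 at C054R063. With slide as a random block none of the 4 probes named for the area difference passed (limma adjusted p 0.0579 to 0.161). The share of Strait calls with the same direction off WCVI was 88.9% of 790 calls and 87.5% of 32 calls with slide as a random and fixed block and 78.3% to 85.6% with 1 fish left out; wild fish gave no share, as no Strait probe then passed. With fork length as a covariate C092R164 and C196R045 reversed, to -0.237 and -0.1135, neither past the threshold. The length slope called 0 probes in 18 fish and 895 over both areas. The length difference was 12.72 to 13.9 cm with 1 fish left out and 12.39 to 15.61 cm in the subsets. No paired analysis was possible because the replicate numbers only name separate fish.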
